A study of Mus musculus with 2 samples.

Results

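Neurotrophin and glial cell line-derived neurotrophic factor (GDNF) family receptors were followed cell by cell in the spiral ganglion of the mouse, which relays sound from the cochlea to the brain. The 6 receptors were chosen by gene symbol, with earlier results of these data known: Ntrk2, Ntrk3, Ngfr, Ret, Gfra1 and Gfra2. The expression table lists 14425 genes and holds 5 of the 6. Gfra2 is not among the listed genes and was not analysed here. Cells came from 2 libraries, each a separate preparation of one genotype, with 462 cells labelled iCON (Runx1-CreER/+; Ai14/+) and 407 labelled iCKO (Runx1-CreER/Runx1F; Ai14/+). Both genotypes share the Ai14 reporter, which makes tdTomato after recombination, and CreER, a Cre that needs tamoxifen, driven from Runx1. All mice received tamoxifen on postnatal day 1, and gave cochlear tissue of both sexes on postnatal days 27 to 29. Cells were enriched by sorting for tdTomato, so a neuron that never expressed the Runx1 driver was less likely to be collected. The iCKO mice differ from the controls by a floxed Runx1 allele. The number of animals in each library is not given in the sources used here. With 1 library per genotype no difference between the libraries has a replicate check, and genotype, library and animals cannot be told apart.

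Neurotrophin receptors on these neurons receive survival and growth signals from the hair cells and supporting cells of the cochlea. Ntrk2 encodes TrkB, the receptor tyrosine kinase for brain-derived neurotrophic factor, and Ntrk3 encodes TrkC, the one for neurotrophin-3. Ngfr encodes p75NTR, which binds all neurotrophins with lower affinity and can act with or without the Trk receptors. Ret is the signalling receptor tyrosine kinase for the GDNF family, and binds its ligands through lipid-anchored co-receptors, of which Gfra1 prefers GDNF and Gfra2 neurturin. Type I spiral ganglion neurons contact inner hair cells and are commonly divided into Ia, marked by Calb2, Ib, and Ic, marked by Lypd1. The rarer type II neurons contact outer hair cells and express Gata3, Prph and Th.

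The receptor genes lie on different chromosomes of the mouse build GRCm38. In the GENCODE annotation Ntrk2 lies at chr13:58806569-59133970 on the plus strand and has 7 protein-coding transcripts. On the minus strand lie Ntrk3 at chr7:78175959-78738012 with 6 such transcripts, Ngfr at chr11:95568818-95587735 with 1, Ret at chr6:118151745-118197718 with 2, and Gfra1 at chr19:58235604-58455909 with 8. Gfra2 lies at chr14:70890120-70979838 on the plus strand. Reads from a 3′ assay sum the transcripts of a gene, so full-length and truncated TrkB or TrkC forms cannot be told apart here. An antisense gene touches an exon of Ntrk2 (4930415C11Rik) and of Gfra1 (Gm16277), and the use of strand in counting is not given in the sources used here. A sense-intronic gene on the same strand, Gm39038, touches an exon of Ntrk3, and strand cannot separate the reads of that pair. The source of promoter bases had no entry for Ntrk3, Ret and Gfra2, and its Gfra1 window lay inside the annotated gene. Since the study deletes Runx1, the promoter bases of the other 2 receptors, Ntrk2 and Ngfr, are shown. They come from RefSeq (GRCm38.p6), are cut where the annotated gene begins, and are written 5′ to 3′ on the strand of the gene, with the core word of RUNX factors (TGTGGT) in capitals.
Ntrk2 promoter, chr13:58806319-58806568, plus strand: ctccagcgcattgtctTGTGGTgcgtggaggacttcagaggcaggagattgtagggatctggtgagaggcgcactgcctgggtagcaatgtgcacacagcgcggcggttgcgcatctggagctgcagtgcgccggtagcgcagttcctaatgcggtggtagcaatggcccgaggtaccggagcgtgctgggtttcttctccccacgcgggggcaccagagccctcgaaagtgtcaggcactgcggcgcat
Ngfr promoter, chr11:95587736-95587948, minus strand: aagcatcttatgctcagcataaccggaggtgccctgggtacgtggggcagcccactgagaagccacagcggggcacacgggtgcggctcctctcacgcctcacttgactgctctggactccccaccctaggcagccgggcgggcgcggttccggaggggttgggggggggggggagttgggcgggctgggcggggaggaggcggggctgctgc
The Ntrk2 stretch of 250 bases holds 1 RUNX word, whose first base lies 234 bases before the start of the gene. The Ngfr stretch of 213 bases holds none, and neither stretch holds the GATA words AGATAA or TGATAA. Both strands were searched. Of 32851 mouse promoters, 14.0% hold the RUNX word in 250 bases and 12.3% in 213 bases. The words are a description of sequence and show no binding.

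Cells were placed in 4 classes by their Lypd1 and Calb2 levels, with 1000 counts in 1000000 (CPM) as the limit for each. Lypd1-high cells numbered 140 in iCON and 30 in iCKO, Calb2-high cells 250 and 273, cells high for both 40 and 96, and cells low for both (both-low) 32 and 8. A level within a factor of 2 of a limit was seen in 62 iCON and 40 iCKO cells. Median depth was 49725.5 unique molecular identifiers (UMIs) per cell in iCON and 33602 in iCKO, so that 1 UMI was worth about 20.1 and 29.8 CPM. Levels are means over cells of CPM. Intervals are exact Poisson intervals at 95% of the summed UMIs, also in CPM, which weight deep cells more, and they cover counting error only. Runx1 itself, measured by its 3′ end, was not lower under the iCKO label (86.7 CPM in iCON and 112 CPM in iCKO). That end does not report a deletion elsewhere in the gene, so iCON and iCKO stand for labels only throughout. Most cells carried RNA of myelin genes, and cells below 500 CPM of 8 summed myelin genes made up 23.6% of iCON and 38.6% of iCKO cells. Cells with Xist and no Y-linked RNA numbered 252 in iCON and 319 in iCKO, and those with Y-linked RNA and no Xist 202 and 82.

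Ntrk2 was found in nearly every cell, Ntrk3 in most, and Ret and Gfra1 in few. The mean level of Ntrk2 was 199 CPM in iCON, where cells ran from 21.8 through a median of 183 to 683 CPM, and 226 CPM in iCKO, where they ran from 0 through 223 to 677 CPM. The cells of the libraries overlap over almost the whole range. A UMI of Ntrk2 was present in 462 of 462 iCON cells and in 406 of 407 iCKO cells. Ntrk3 averaged 85.8 CPM in iCON (lowest 0, median 78.3, highest 428) and 72.6 CPM in iCKO (lowest 0, median 62.8, highest 238). It was found in 93.9% and 89.9% of cells, or in 80.4% and 76.0% after each cell was thinned to 20000 UMIs. Ngfr averaged 73.3 CPM in iCON and 50.7 CPM in iCKO, above its medians of 33.6 and 30.1 CPM, and its highest cells reached 954 and 1016 CPM. Gfra1 averaged 16.0 and 7.33 CPM with a median of 0 in both, and its highest cells reached 379 and 498 CPM. Ret was scarce, at 2.93 and 3.28 CPM, with 66 UMIs in 56 iCON cells and 47 UMIs in 42 iCKO cells.

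Over all cells, Ntrk2 was higher and Ntrk3, Ngfr and Gfra1 were lower under the iCKO label, and Gfra1 was the only one of the 5 listed receptors past a log2 ratio of 0.5. Ratios are log2 of iCKO over iCON means with 5 CPM added to each. Ntrk2 gave 0.18 and Ntrk3 -0.23. From summed UMIs without the added CPM the values were 0.23 for Ntrk2 (interval 0.17 to 0.30) and -0.25 for Ntrk3 (interval -0.37 to -0.14). Ngfr gave -0.49, or -0.38 from summed UMIs (interval -0.52 to -0.25). Gfra1 gave -0.77, or -1.03 from summed UMIs (interval -1.42 to -0.66). Ret gave 0.06, with an interval from summed UMIs of -0.38 to 0.75, and lay below the minimum of 10 CPM. The minimum has to be met in 1 library only, and Gfra1 met it only in iCON, where it is higher. Of 8545 genes above that minimum, 1.39% were at least 0.5 higher and 3.24% at least 0.5 lower. Shares of all genes in the other comparisons are likewise of the genes above the minimum there.

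The Ngfr and Gfra1 differences rested on the both-low cells, which made up 6.93% of iCON and 1.97% of iCKO cells. Of all Gfra1 UMIs these cells held 79.4% in iCON (exact binomial interval 73.8 to 84.2%) and 49.4% in iCKO (37.8 to 61.0%). Of all Ngfr UMIs they held 41.8% (39.2 to 44.5%) and 19.2% (16.2 to 22.4%). For Ntrk2 the share was near the share of cells, 6.93% in iCON and 2.15% in iCKO, and for Ntrk3 it was 2.39% and 1.11%. With the both-low cells left out, the log2 ratio became 0.05 for Ngfr (36.4 CPM in iCON and 37.8 CPM in iCKO) and 0.09 for Gfra1 (2.41 and 2.91 CPM). Those of Ntrk2 and Ntrk3 were 0.22 and -0.27. The direction over all cells also turned with sex-linked RNA: in cells with Xist the ratio was -1.32 for Ngfr and -1.99 for Gfra1, and in cells with Y-linked RNA it was 1.31 and 1.96. The both-low cells comprised 31 Xist and 1 Y-linked cell in iCON, and 1 and 7 in iCKO. Without the both-low cells no receptor was past 0.5 in either direction, against 1.39% of 8470 genes higher and 2.42% lower.

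**Figure D1:**
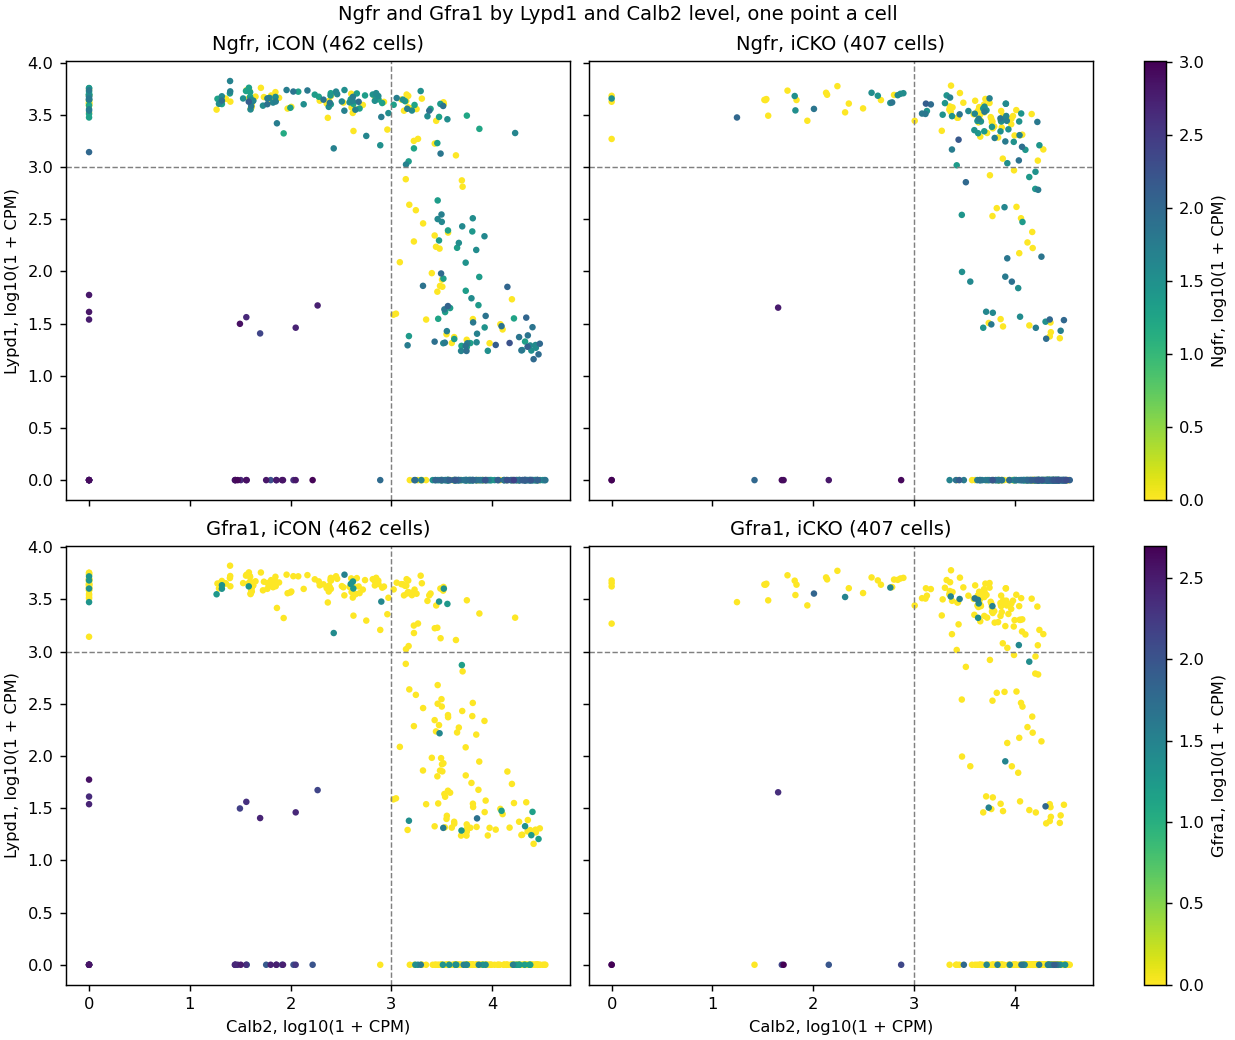
Each point is a cell placed by its Calb2 level (x axis) and Lypd1 level (y axis), both as log10 of 1 plus CPM, for the 462 iCON cells (left) and 407 iCKO cells (right), coloured by Ngfr (top) or Gfra1 (bottom) on the same kind of scale, with dashed lines at 1000 CPM. The darkest points lie at the lower left, among the 32 and 8 both-low cells.

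The both-low cells were mostly type II-like and formed a separate group by Gata3, a transcription factor of type II neurons. Of the 40 both-low cells, 37 had at least 411 CPM of Gata3, and no other cell of either library had more than 170 CPM. A Gata3 limit of 400 CPM, chosen after these values were seen, gave 30 iCON and 7 iCKO cells, called Gata3-high here. Plk5 was found in 37 of 37, Prph in 17 of 30 and 6 of 7, and Th, the enzyme that makes the precursor of dopamine, in 26 of 30 and 4 of 7. Smad3 and Etv4, which were on the same marker list, were found in 0 of 37. Runx1 was likewise found in 0 of 37, where 0 UMIs allow up to 2.77 CPM. All 30 of the iCON cells carried Xist RNA and all 7 of the iCKO cells Y-linked RNA, so in these cells sex and library cannot be told apart. Their median depth was 31229 UMIs in iCON and 20915 in iCKO. The list of 6 neuron genes, each found in both-low cells of both libraries, summed to a mean of 8336 CPM in both-low cells of iCON and 9881 CPM in those of iCKO, against 16441 to 18907 and 19077 to 22414 CPM in the other classes. The 3 fibroblast genes summed to means of 31.7 and 38.6 CPM in both-low cells, with a median of 0 in each, against 5.58 to 8.61 CPM elsewhere. The 2 hair cell genes in the table summed to 24.7 CPM in both-low cells of iCON and 0 in those of iCKO, against 0.949 to 4.31 CPM elsewhere. The 1 myeloid gene in the table averaged 3.43 CPM in both-low cells of iCON and 12.1 CPM in those of iCKO. Its median was 0 in each, and it was at 0 elsewhere. The part of these markers in the receptor levels was not tested.

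Every Gata3-high cell held UMIs of Ngfr and Gfra1, although the lowest Gfra1 cell held a single one. Ngfr in the 30 iCON cells ran from 187 through a median of 627 to 954 CPM, and in the 7 iCKO cells from 593 through 797 to 1016 CPM. Of these 37 cells, 35 lay above the highest of the 829 cells outside the both-low class, which had 258 CPM. Gfra1 ran from 41.5 through 215 to 379 CPM in iCON and from 94.5 through 219 to 498 CPM in iCKO. Here too 35 of the 37 cells exceeded the highest of the other classes, a cell with 77.4 CPM. The 3 both-low cells that were not Gata3-high had 0 Gfra1 UMIs and 75.0 to 101 CPM of Ngfr. Setting the both-low cells against the other cells of their library gave log2 ratios for Ngfr of 3.80 in iCON and 4.02 in iCKO, and for Gfra1 of 4.78 and 4.88. From summed UMIs without the added CPM, Ngfr gave 3.89 (interval 3.73 to 4.05) and 3.81 (3.52 to 4.10), and Gfra1, whose level in the other cells is below the added 5 CPM, gave 6.31 (5.86 to 6.78) and 5.85 (5.17 to 6.53). The transcriptomes differed widely in this comparison: 22.7% of genes in iCON and 30.3% in iCKO were at least 0.5 higher in both-low cells, and 24.5% and 28.9% at least 0.5 lower. Of the genes above the minimum, 99.4% and 99.5% had a lower ratio than Ngfr. Gfra1 met the minimum only in the both-low cells, where it is high, so its rank is not given. The both-low means of iCON moved with the class limits: with 2000 CPM as the limit the class held 56 iCON cells, and Ngfr averaged 336 CPM and Gfra1 116 CPM in them, against 570 and 199 CPM in the 32 cells at 1000 CPM. In iCKO, with 9 cells in place of 8, the means were 613 and 203 CPM, against 690 and 228 CPM.

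Of the Trk receptors, Ntrk2 was somewhat higher and Ntrk3 lower in the same cells. Ntrk2 was present in 37 of 37 Gata3-high cells, at means of 283 CPM in iCON (107 to 493) and 314 CPM in iCKO (199 to 439). In both-low cells its log2 ratio over the other cells was 0.54 in iCON and 0.44 in iCKO. Ntrk3 was found in 18 of 30 and 4 of 7 Gata3-high cells, at means of 36.3 and 54.0 CPM. Its log2 ratio in both-low over other cells was -1.06 in iCON, or -0.99 from summed UMIs (interval -1.45 to -0.56), and -0.45 in iCKO, or -0.58 from 11 UMIs (interval -1.59 to 0.26). Many genes differed as much: 22.7% in iCON and 30.3% in iCKO were at least 0.5 higher, and 24.5% and 28.9% lower. Of the genes above the minimum, 78.9% in iCON and 67.1% in iCKO had a lower ratio than Ntrk2. For Ntrk3 these shares were 10.6% and 30.5%. Ret, which transmits the signal of GDNF bound to GFRA1, was rarely seen beside it. Only 1 UMI of Ret was found among the 1083048 UMIs of the 37 Gata3-high cells, in 1 iCON cell that also held Gfra1. In both-low cells as a class Ret stood at 0.98 CPM from summed UMIs in iCON (upper bound 5.46) and 4.38 CPM in iCKO (upper bound 24.4). The other cells had 3.10 and 3.40 CPM, so a difference in Ret was not detectable at this depth.

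**Figure D2:**
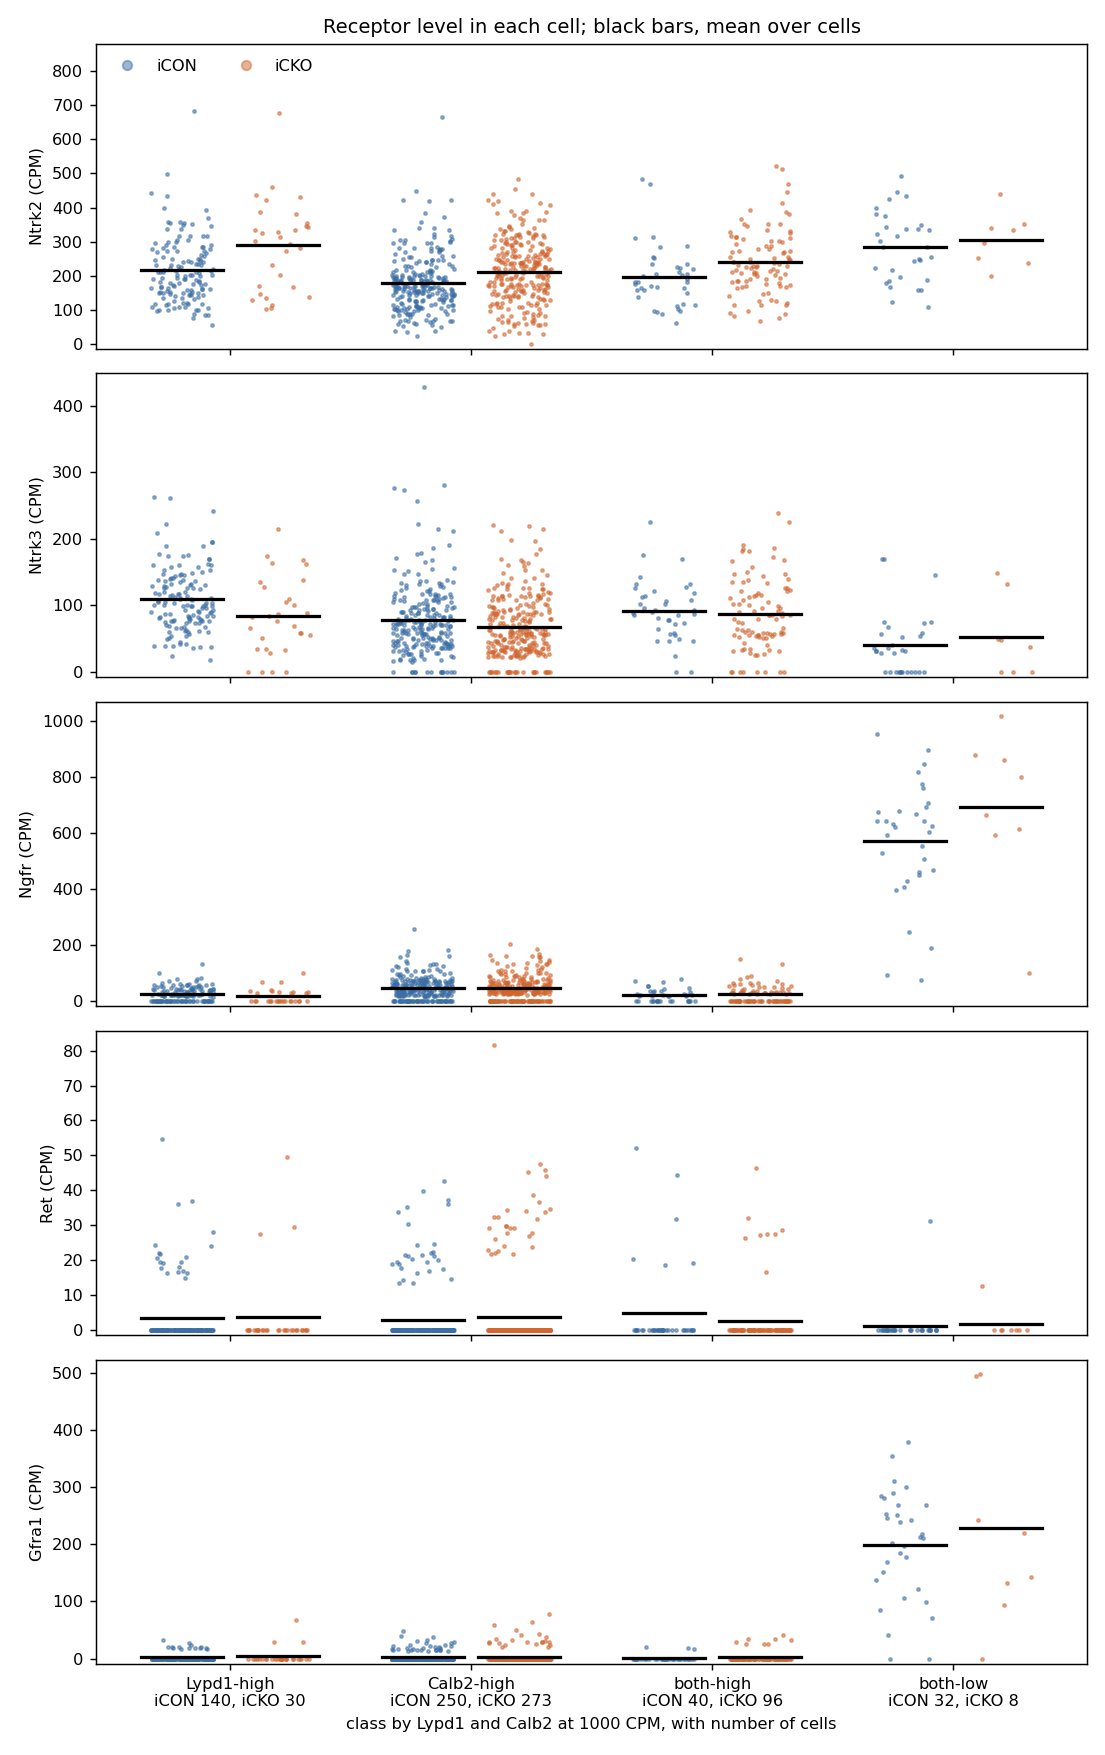
Level in CPM (y axes) of each of the 5 receptors in every cell, by Lypd1 and Calb2 class (x axis), for iCON (blue) and iCKO (orange), with black bars at the mean over cells. Ngfr and Gfra1 stand apart in the both-low class, with means of 570 and 690 CPM for Ngfr and 199 and 228 CPM for Gfra1, while Ntrk2 and Ntrk3 overlap between all classes.

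RNA of glia was uneven among the both-low cells. In iCON, Apoe, which satellite glia express strongly, averaged 1078 CPM and had a UMI in 56.3% of both-low cells, and in iCKO it averaged 121 CPM. Fabp7, another glial gene, averaged 422 and 36.9 CPM. S100b, on the same list, went the other way, at 97.1 and 246 CPM in both-low cells against 1117 to 1288 CPM in the other classes. Sox10, Erbb3, Cdh19 and Foxd3 were at most 12.2 CPM in iCON both-low cells and at 0 in iCKO ones. The whole list of 7 Schwann and satellite glia genes summed to 0 to 6975 CPM in iCON both-low cells, with a median of 243, and to 43.8 to 1661 CPM in iCKO ones, where 4 of the 7 were at 0 and the median was 72.3. Medians of this sum in the other classes were 1136 to 1319 CPM, and S100b made up most of it there. In those classes Apoe averaged at most 15.8 CPM and Fabp7 at most 7.66 CPM, below their both-low means. The order of the sums therefore follows S100b and is not that of Apoe and Fabp7. The list of 8 myelin genes ran from 0 to 8845 CPM in the former and to 2466 CPM in the latter. In iCON, Gfra1 was high on both sides of the 500 CPM myelin limit. It averaged 173 CPM in the 17 iCON both-low cells below the limit and 227 CPM in the 15 above it. Both iCON cells that were not Gata3-high lay below the limit, with 0 CPM of Gfra1. In iCKO Gfra1 averaged 222 CPM in the 6 cells below the limit, and of the 2 cells above it 1 had 494 CPM and the other, which was not Gata3-high, had 0. Ngfr averaged 547 and 597 CPM on the 2 sides in iCON, and 804 CPM in the 6 iCKO cells below the limit. The iCON cells that were not Gata3-high had 92.9 and 75.0 CPM of Ngfr and lowered the mean below the limit. The 2 iCKO cells above the limit had 593 and 101 CPM, the second being the one that was not Gata3-high.

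Outside the both-low class the low level of Gfra1 went with myelin-gene RNA. In cells below 500 CPM of myelin-gene RNA, Gfra1 had 0 UMIs in 92 iCON cells (upper bound 0.678 CPM) and 1 UMI in 151 iCKO cells (0.202 CPM, upper bound 1.12). In cells at or above it there were 52 UMIs in 49 of 338 iCON cells, or 3.14 CPM (2.34 to 4.12), and 38 UMIs in 32 of 248 iCKO cells, or 4.44 CPM (3.14 to 6.10). Depth was alike on the 2 sides, with medians of 51365 and 50424.5 UMIs in iCON and of 32250 and 34353 in iCKO. After thinning, 0% and 0.662% of the cells below the limit had a Gfra1 UMI, against 5.09% and 9.35% above it. The other receptors did not share this split. Ret had 17 UMIs below the limit and 48 above it in iCON (3.84 and 2.90 CPM) and 22 and 24 in iCKO (4.43 and 2.81 CPM). Ngfr was 45.7 CPM below and 34.9 CPM above the limit in iCON, and 43.3 and 35.5 CPM in iCKO. Whether the Gfra1 of these cells is their own was not tested.

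**Figure D3:**
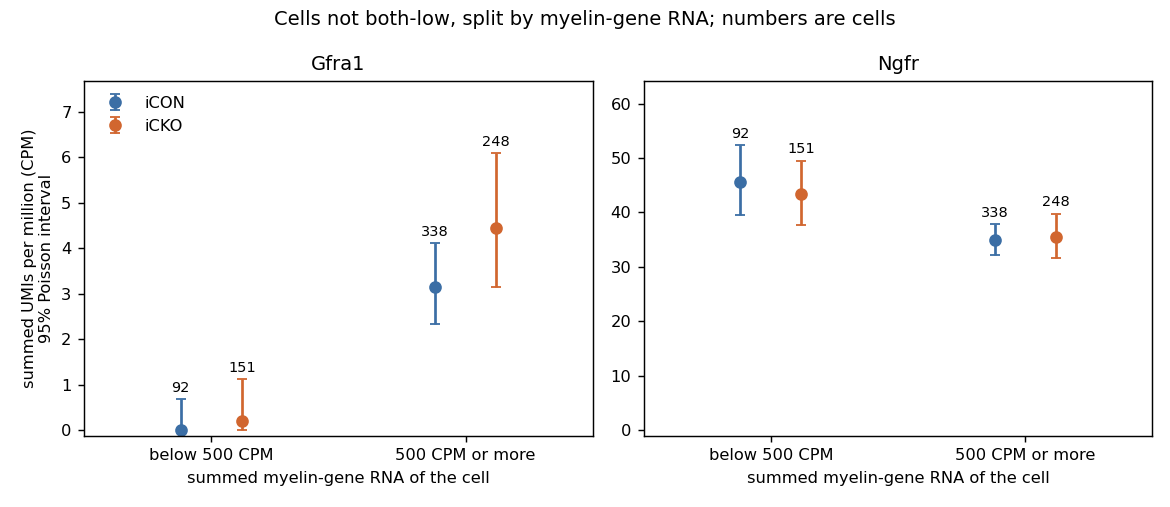
Summed UMIs as CPM (y axes) of Gfra1 (left) and Ngfr (right) in cells outside the both-low class, split at 500 CPM of summed myelin-gene RNA (x axis), with 95% Poisson intervals for iCON (blue) and iCKO (orange) and cell numbers above the bars. Gfra1 is at 0 and 0.202 CPM below the limit and at 3.14 and 4.44 CPM above it, while Ngfr lies between 34.9 and 45.7 CPM throughout.

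Among type I cells Ngfr was lower in the Lypd1-high than in the Calb2-high class in both libraries. In iCON, Ngfr averaged 24.3 CPM in Lypd1-high cells (lowest 0, median 19.7, highest 131) and 45.8 CPM in Calb2-high cells (lowest 0, median 39.2, highest 258). In iCKO it averaged 17.5 CPM (median 0, highest 99.1) and 45.2 CPM (median 35.7, highest 201). The classes overlap cell by cell in both libraries. The log2 ratio of Lypd1-high over Calb2-high was -0.79 in iCON, or -0.95 from summed UMIs (interval -1.21 to -0.70), and -1.16 in iCKO, or -1.20 from 19 UMIs against 421 (interval -1.95 to -0.54). By the ratio of means Ngfr was the only receptor above the minimum past 0.5 in this comparison, and was so in both libraries, while Ntrk2 in iCKO reached 0.50 from summed UMIs. Of all genes, 2.49% in iCON and 5.94% in iCKO were at least 0.5 lower, and 3.01% and 8.19% at least 0.5 higher. After thinning, a Ngfr UMI was found in 30.7% of Lypd1-high and 54.1% of Calb2-high cells in iCON, and in 26.7% and 61.0% in iCKO. No cells of a type known to lack Ngfr are in the table, so the share that free RNA would give was not measured.

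The Ngfr order held on each side of the divisions by sex-linked RNA and by myelin-gene RNA. In cells with Xist the ratio was -0.64 in iCON and -1.03 in iCKO, and in cells with Y-linked RNA -0.90 and -1.46. Below 500 CPM of myelin-gene RNA it was -1.28 in iCON (20.3 CPM against 56.7 CPM) and -0.995 in iCKO (22.1 against 49.1 CPM). At or above that limit it was -0.66 and -1.33.

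The mean levels of both Trk receptors were higher in Lypd1-high cells, by less than 0.5 over all cells of the classes, and for Ntrk3 in iCKO the counting interval held 0. The Ntrk3 ratio reached 0.57 in iCON cells with Xist and 0.50 in iCKO cells below the myelin limit, and the Ntrk2 ratio 0.57 in iCKO cells with Xist. Ntrk3 averaged 109 CPM in Lypd1-high and 77.9 CPM in Calb2-high cells of iCON, a log2 ratio of 0.46 (0.49 from summed UMIs, interval 0.35 to 0.64). In iCKO the means were 83.3 and 67.2 CPM and the ratio 0.29, with an interval from summed UMIs of -0.09 to 0.61. Ntrk2 averaged 216 and 179 CPM in iCON, a ratio of 0.26 (0.28 from summed UMIs, interval 0.18 to 0.38). In iCKO it averaged 289 and 212 CPM, a ratio of 0.43 (0.50 from summed UMIs, interval 0.32 to 0.68). Among iCKO cells with Y-linked RNA, 7 of them Lypd1-high, the Ntrk2 ratio was -0.17, against 0.57 among those with Xist. After thinning, a UMI of Ntrk2 and one of Ntrk3 were found together in 87.1% of Lypd1-high and 75.4% of Calb2-high cells in iCON. In iCKO the shares were 73.3% and 73.5%. The share that free RNA would give was not measured for any of the receptors. Gfra1 and Ret did not separate these classes within counting error. Gfra1 stood at 2.07 and 2.76 CPM in iCON and 4.19 and 2.88 CPM in iCKO, from 15, 34, 4 and 27 UMIs. Ret stood at 3.31 and 2.69 CPM in iCON and 3.54 and 3.61 CPM in iCKO.

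Cells high for both markers resembled Lypd1-high cells in their low Ngfr. Their Ngfr was 19.8 CPM in iCON and 23.4 CPM in iCKO. Against Lypd1-high cells the log2 ratio was -0.24 in iCON (interval from summed UMIs -0.85 to 0.20) and 0.34 in iCKO (interval -0.44 to 1.10), so neither interval excludes equality. Ntrk3 in these cells was 91.4 and 86.6 CPM, and Ntrk2 197 and 241 CPM. For Ntrk2 the both-high means had no stable place among the classes. They lay between the means of the Lypd1-high and Calb2-high cells with limits of 1000 CPM, but with limits of 2000 CPM the iCON mean was 154 CPM, below both, as it was in iCON cells with Xist (169 CPM). In cells with Y-linked RNA it was above both in each library (223 and 256 CPM).

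Calb2 itself covers a wide range, and the receptors varied along it. Outside the both-low class, mean Ngfr in iCON was 23.6 CPM in cells below 100 CPM of Calb2, 25.4 CPM from 100 to 1000, 19.9 CPM from 1000 to 3000, 38.6 CPM from 3000 to 10000, 65.7 CPM from 10000 to 20000 and 63.6 CPM from 20000 up. In iCKO the same steps gave 14.0, 20.4, 38.2, 25.9, 37.2 and 55.0 CPM. Ngfr was thus highest in the 2 upper steps in iCON and in the uppermost in iCKO. The log2 ratio of the uppermost step over that from 1000 to 3000 was 1.46 in iCON (46 cells against 64, interval from summed UMIs 1.22 to 2.11) and 0.47 in iCKO (117 cells against 30, interval -0.06 to 0.94). Of all genes, 3.62% in iCON and 5.51% in iCKO were at least 0.5 higher in that comparison, and 12.3% and 9.28% at least 0.5 lower.

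The Trk receptors went the other way along Calb2. Ntrk3 in iCON was 115, 99.0, 92.6, 80.7, 82.8 and 56.4 CPM in the same order, and in iCKO 89.5, 77.9, 75.9, 86.1, 70.4 and 59.8 CPM. Its lowest mean was at the uppermost Calb2 step in both libraries. The ratio of the uppermost step over that from 1000 to 3000 was -0.67 in iCON (interval from summed UMIs -1.01 to -0.41) and -0.32 in iCKO (interval -0.77 to -0.01). Ntrk2 in iCON was 231, 194, 205, 179, 192 and 148 CPM in the same order. In iCKO it was 364, 223, 257, 217, 236 and 198 CPM. Between the end steps Ntrk2 rose as well as fell, and the first iCKO step held 14 cells. Its ratio for the same pair of steps as above was -0.45 in iCON and -0.37 in iCKO. By Lypd1 the change of Ngfr came at the low end: in iCON it was 49.1 CPM in cells below 100 CPM of Lypd1, 17.2 CPM from 100 to 1000 and 23.1 CPM from 3000 up. In iCKO these steps gave 46.9, 22.9 and 20.3 CPM. The share of cells below the myelin limit was 10.7% at the lowest Calb2 step and 41.3% at the highest in iCON, and 50% and 41.9% in iCKO, where the lowest step held 14 cells. Its part in these differences was not tested.

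**Figure D4:**
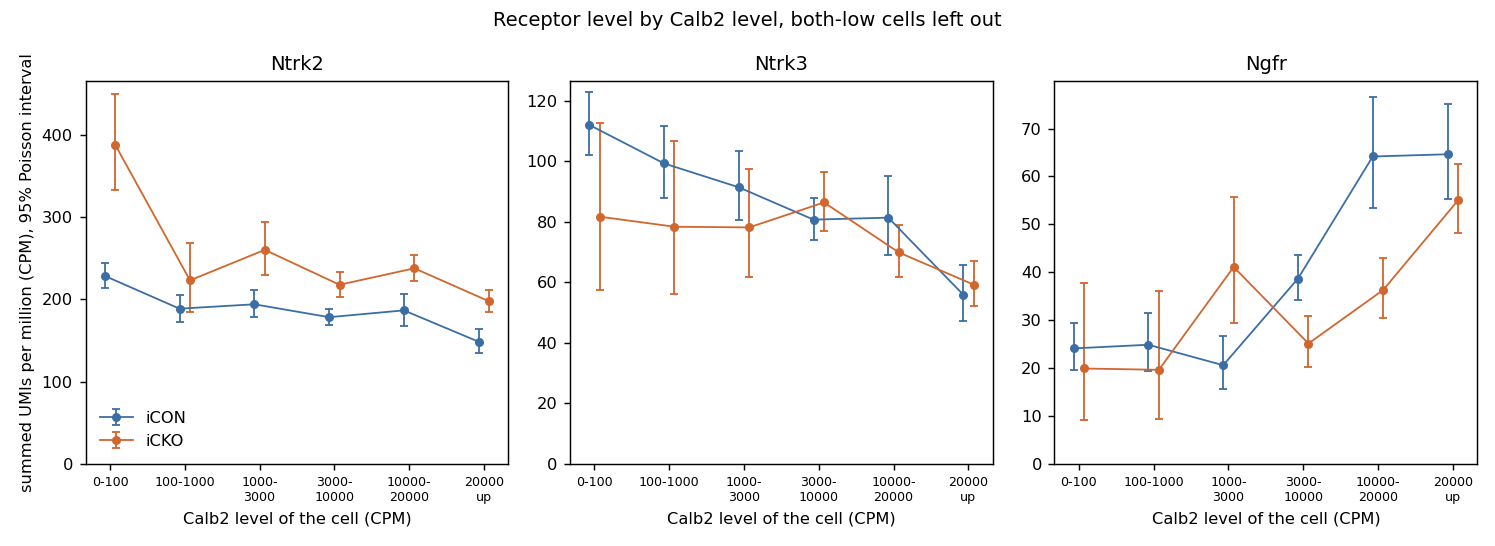
Summed UMIs as CPM (y axes) of Ntrk2, Ntrk3 and Ngfr in cells outside the both-low class, by the Calb2 level of the cell (x axis, 6 steps in CPM), with 95% Poisson intervals for iCON (blue) and iCKO (orange). Ntrk2 and Ntrk3 are lowest and Ngfr is highest or nearly so where Calb2 is at least 20000 CPM.

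Within the type I classes, Ntrk2 was higher under the iCKO label in each of the 3 classes that had at least 10 cells per library. The log2 ratio was 0.41 in Lypd1-high, 0.24 in Calb2-high and 0.28 in both-high cells. From summed UMIs it was 0.50 (interval 0.31 to 0.68), 0.28 (0.19 to 0.37) and 0.36 (0.18 to 0.54). Ntrk3 gave -0.36, -0.20 and -0.07, with intervals from summed UMIs of -0.78 to -0.08, -0.35 to -0.05 and -0.37 to 0.18. Ngfr gave -0.39, -0.02 and 0.20, and each of its intervals held 0. In Calb2-high cells, the largest class, the Ngfr interval of -0.25 to 0.12 does not reach 0.5 in either direction. With these class limits no receptor above the minimum level was past 0.5 in any of these classes by the ratio of means, although Ntrk2 in Lypd1-high cells stood at 0.5 from summed UMIs. With limits of 2000 CPM, Ntrk2 in both-high cells was 0.66 (71 iCKO and 14 iCON cells) and Ntrk3 in Lypd1-high cells -0.51, and with limits of 500 CPM Ntrk2 in Lypd1-high cells was 0.51. The Ngfr ratio in Lypd1-high cells was -0.67 with limits of 500 CPM, 0.12 with limits of 2000 CPM and -0.65 in cells with Y-linked RNA (7 iCKO cells), so its direction was not stable. In both-high cells with Xist the Ntrk2 ratio was 0.47. Over all genes the shares past 0.5 were 4.32% higher and 6.77% lower in Lypd1-high, 1.27% and 2.4% in Calb2-high, and 4.47% and 5.03% in both-high cells. Among all genes compared in each class, Ntrk2 ranked above 92.4% in Lypd1-high, 90.9% in Calb2-high and 84.9% in both-high cells. Over all cells, Ntrk2 was higher under the iCKO label both in cells with Xist (0.15) and in cells with Y-linked RNA (0.25). Ntrk3 was lower in both as well (-0.16 and -0.26). In Lypd1-high cells alone the Ntrk2 ratio was 0.49 with Xist and -0.079 with Y-linked RNA, where 7 iCKO cells remained.

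**Figure D5:**
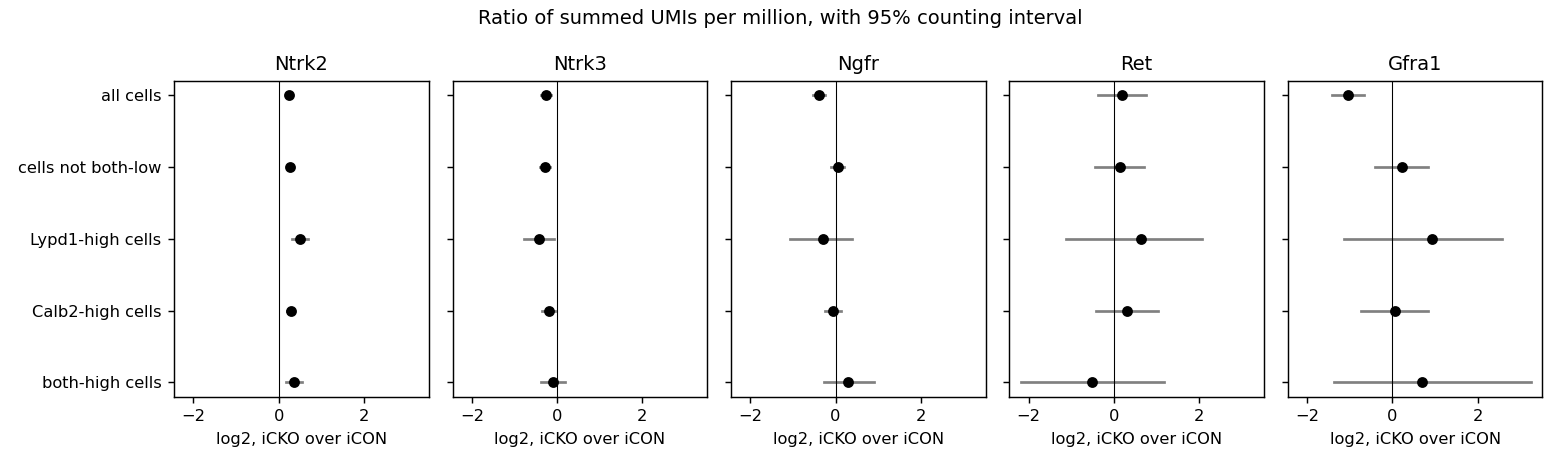
Log2 ratio of summed UMIs as CPM, iCKO over iCON (x axes), for each of the 5 receptors in all cells, in cells outside the both-low class and in 3 classes (y axis), with 95% counting intervals as grey lines. The Ntrk2 intervals lie above 0 in every row, and the Ngfr and Gfra1 points lie below 0 over all cells (-0.38 and -1.03) and near 0 without the both-low cells (0.05 and 0.22).

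Other genes of these pathways were taken from 6 lists of 60 genes (ligands, other receptors, adaptors and effectors, partners of p75NTR, and feedback or target genes), of which 50 are in the table. Over all cells 24 passed the minimum level. Of these 0 were at least 0.5 higher under the iCKO label and 1 was at least 0.5 lower: Egr1, an immediate early transcription factor, at 16.2 CPM in iCON and 8.47 CPM in iCKO (-0.65). Egr1 met the minimum only in iCON, where it is higher, and 1 of 24 is near the 3.24% of all genes that were as much lower. The median of the 24 was 0.05, against -0.02 over all genes compared. Among ligands, Nrtn, which encodes neurturin, was 20.4 and 29.6 CPM (0.44). Among co-receptors, Lingo1, a partner of the Nogo receptor complex with p75NTR, was 77.1 and 109 CPM (0.47). Both lay below the limit of 0.5. With the both-low cells left out, the ratio was 0.38 for Nrtn and 0.40 for Lingo1. Gfra3, Ntf3 and Gdnf are not among the listed genes and were not analysed here.

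In both-low cells the pathway genes differed on a larger scale, as did the transcriptome. In iCON, 8 of 28 genes above the minimum were at least 0.5 higher and 10 lower than in other cells, and in iCKO 10 of 27 were higher and 10 lower. Over all genes the shares were 22.7% higher and 24.5% lower in iCON, and 30.3% and 28.9% in iCKO. Sorcs3, a sortilin-family receptor related to those that bind pro-neurotrophins with p75NTR, was found in 27 of 32 iCON and 4 of 8 iCKO both-low cells and had 0 UMIs in the 829 other cells. Set against a floor of 3 UMIs over the other cells of the library, its counted level was at least 480-fold higher in iCON (70 UMIs). In iCKO it was at least 138-fold higher, from 7 UMIs. Counting error on the counted side is left out of these bounds and could lower them, as for Nrtn below. Gfra4, the co-receptor for persephin, was 90.8 CPM in both-low and 40.9 CPM in other cells of iCON, and 84.4 and 44.6 CPM in iCKO. Ptpn11, a phosphatase downstream of Trk and RET, was 483 and 113 CPM in iCON and 433 and 121 CPM in iCKO. Kidins220, a scaffold that binds Trk receptors and p75NTR, was 905 and 430 CPM in iCON and 1087 and 477 CPM in iCKO.

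Nrtn and Lingo1 went the opposite way. Nrtn had 0 UMIs in the 32 iCON both-low cells and 461 UMIs in 255 of the other 430, which is at least 7.47-fold lower against a floor of 3 UMIs over the class. In iCKO it had 1 UMI in 8 both-low cells and 416 UMIs in 230 of 399 others. Lingo1 was 4.76 CPM in both-low and 82.5 CPM in other cells of iCON, and 12.5 and 111 CPM in iCKO. Ncam1, an adhesion molecule that can bind GDNF with GFRA1 in place of RET, was present in all 40 both-low cells, at 200 CPM in iCON and 124 CPM in iCKO, and at 194 and 178 CPM in other cells. Its log2 ratio was 0.05 in iCON and -0.51 in iCKO.

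The other pathway genes that were above the minimum and past 0.5 in both-low cells of at least 1 library were as follows. Dok5, an adaptor for receptor tyrosine kinases, was 35.0 CPM in both-low and 12.4 CPM in other cells of iCON, and 94.6 and 17.7 CPM in iCKO. Ngfrap1, a p75NTR-binding protein, had log2 ratios of 0.70 in iCON and 0.79 in iCKO. Dok6, an adaptor related to Dok5, gave 1.94 in iCON and, below the minimum, 0.97 in iCKO from 1 UMI. Frs2, a docking protein of Trk receptors, gave 0.59 and 0.25. Bdnf, the ligand of TrkB, gave 3.48 in iCKO, from 9 UMIs in 2 of 8 cells, and 1.19 in iCON, from 8 UMIs in 6 of 32 cells and below the minimum. Spred2, an inhibitor of Ras signalling, gave 2.14 in iCKO from 7 UMIs and 0.81 in iCON from 10 UMIs, again below the minimum. Plcg1, a phospholipase, gave 1.34 in iCKO and 0.21 in iCON, from 2 UMIs each. Where Bdnf, Spred2, Plcg1, Dok6 and Sorcs3 met the minimum, they did so only through the both-low cells, in which they are higher.

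The other log2 ratios below 0 included Maged1, which binds p75NTR (-0.89 in iCON and -0.57 in iCKO), and the adaptor Sh2b1 (-1.23 and -0.84). The adaptor Shc4 gave -0.72 and -1.49, and Rapgef1, an exchange factor for a small GTPase, -0.81 and -1.48. Rtn4r, the Nogo receptor, gave -1.40 in iCON, and in iCKO had 0 UMIs in both-low cells against 14.6 CPM in the others. Egr1 had 0 UMIs in both-low cells of iCON against 354 UMIs in 91 of the other 430, and in iCKO, below the minimum, 3.15 and 8.58 CPM. Sorcs1, another sortilin-family receptor, gave -0.69 in iCON and, below the minimum, -0.67 in iCKO. Sort1, the sortilin that binds pro-neurotrophins, was 23.6 and 31.3 CPM in iCON and 15.0 and 35.1 CPM in iCKO. Gab2, a docking protein, gave 0.04 in iCON and -0.81 in iCKO. The adaptor Crkl gave -0.52 in iCON (16 UMIs, interval from summed UMIs -1.42 to 0.12) and 1.25 in iCKO (15 UMIs, interval 0.31 to 1.90). Intervals from summed UMIs also held 0 in iCKO for Sh2b1 (6 UMIs in both-low cells), Sort1 (4 UMIs), Gab2 and Plcg1 (2 UMIs each) and Shc4 (1 UMI), and in iCON for Sorcs1 (5 UMIs), so the counts do not set their direction there. Rtn4r, Shc4, Rapgef1 and Nrtn in both libraries, Egr1, Sorcs1 and Lingo1 in iCON and Gab2 in iCKO met the minimum only through the other cells, in which they are higher. These genes are part of the counts above. The difference between the libraries was not tested for any of these genes.

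Genes whose cell-to-cell pattern was most like that of a receptor were sought among 8424 genes by Spearman correlation of CPM within each library. A gene was named if its coefficient reached 0.3 in both. Ngfr had 1 such gene, Alpk2, an alpha-kinase, with 0.35 over 462 iCON cells and 0.30 over 407 iCKO cells. Cells of a library share its depth and class composition, and these values are descriptions. For Ntrk2, Ntrk3 and Ret no gene reached 0.3 in both libraries. By the lower of the coefficients from iCON and iCKO, the highest was Dnm3 with Ntrk2, at 0.30 and 0.27. Gfra1 was found in under 10% of iCKO cells and was left out.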

How the data were processed

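Per the labels' protocols, tdTomato-sorted cochlear cells were profiled with a 10x Genomics 3′ kit (v3). The submitters' processing notes name Cell Ranger, Seurat and mm10, without role. The deposited values are natural logs of CPM plus 1, as the table itself shows: linear values summed to 1000000 in each cell, and 100% of nonzero values lay within 1e-06 of whole steps, so UMIs were recovered. A deposited annotation assigns barcodes to libraries, which share 0 barcodes. Members, gene lists and rules were chosen with earlier results of these data known. Named genes were the receptors, the pathway genes past a log2 ratio of 0.5 and, by likeness, up to 3 genes a receptor reaching a Spearman coefficient of 0.3 in both libraries. Further pathway genes were named after their values were seen. Shares were thinned to 20000 UMIs, which left out 8 iCON and 2 iCKO cells. Scrublet (scanpy 1.11.5) called 1 iCON and 4 iCKO cells doublets, which were kept except in 1 alternative. No p-value was computed. Alternatives changed the weighting, pseudocount, class limits, doublets, and cells by sex-linked or myelin RNA, and ratio code was tested on simulated data. A planned Prph limit of 1000 CPM found 1 cell, so Gata3 replaced it after the values were seen.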

Additional observations from a re-analysis of the deposited data

How the results depend on the processing

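Of 425 alternative values, 372 lay within counting error of the main value or, for counts of genes, within 1.5 times. Some could not differ: the Prph limit left out 1 iCON both-low cell and 0 iCKO cells, so values of the other classes stayed the same. Counting error is also wide for scarce genes. Of the 122 alternatives of the main results, 101 lay within these limits and 17 moved past them. The other 4 changed the sign of a ratio past 0.5. Over all cells, the iCKO over iCON log2 ratio of Gfra1 (-0.77) was -1.99 in Xist cells, 1.96 in Y-linked cells, -1.23 below 500 CPM of myelin-gene RNA, 0.20 with the 4 classes weighted equally, 0.093 without both-low cells and 0.094 without Gata3-high cells. The Ngfr ratio (-0.49) was -0.35 from summed UMIs with the 5 CPM still added, -1.32 in Xist cells, 1.31 in Y-linked cells, -0.74 below the myelin limit, 0.23 with equal classes, 0.050 without both-low and 0.048 without Gata3-high cells. All 30 Gata3-high cells of iCON carried Xist and all 7 of iCKO Y-linked RNA. The Ntrk2 ratio (0.18) was 0.25 in Y-linked cells, 0.11 below the myelin limit and 0.25 with equal classes. Ntrk2 and Ntrk3 kept their sign in 14 of 14 alternatives each. For Lypd1-high over Calb2-high cells, Ntrk2 was 0.36 in Xist cells of iCON (0.26 in all) and -0.17 in Y-linked cells of iCKO, where only 7 Lypd1-high cells remained (0.43 in all). Ngfr was -1.28 below the myelin limit in iCON (-0.79 in all). With a myelin limit of 200 CPM, Gfra1 outside the both-low class had 0 CPM below the limit in iCKO as well, in 145 cells. Without a filter on level, 3 pathway genes in place of 1 were at least 0.5 lower under the iCKO label. The alternatives without both-low or Gata3-high cells and the class ratios by myelin were chosen after the data were seen. No paired analysis was possible because each genotype is 1 library, and no replicate could be left out. Depth limits Ret and, in type I cells, Gfra1, whose levels lie below the worth of 1 UMI in a cell.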
